A study of Mus musculus with 3 samples.

Results

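Type I interferon antiviral effector genes were followed through the blood cells of C57BL/6J mice. The list names 38 interferon-stimulated genes by symbol, of which 37 had a row among the 31053 genes of the count tables; Mx2 was not analysed here. Blood cells were sequenced as 3 droplet libraries, 1 for each group. The groups were labelled Sham, CMC-treated with CLP, and HDCA-treated with CLP, all at 12 h, and are called Sham, CLP and HDCA+CLP. The labels do not spell out the abbreviations: CLP was taken to mean puncture of the ligated caecum, an operation that causes abdominal sepsis, HDCA to mean the bile acid hyodeoxycholic acid, and CMC to mean the vehicle carboxymethylcellulose, which the Sham label does not name. Age, sex, dose and the number of animals in a library are not given in the sources used here. With 1 library per group no difference can be tested against the spread between animals. Every interval below is a 95% interval that covers counting error only.

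Type I interferons are cytokines that signal through the receptor chains Ifnar1 and Ifnar2 and the kinases Jak1 and Tyk2. The kinases activate a transcription factor complex that contains Stat2 and Irf9 and binds a short DNA element, the interferon-stimulated response element, in front of its target genes. The products of these targets degrade viral RNA, block its translation, trap budding virions or sense foreign nucleic acids, and several of them feed back on the pathway. Bacterial sepsis also engages the pathway, and many of the genes answer to interferon gamma as well.

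Levels were read within 5 lineages. Each kept cell was assigned by the first of these gates that it met: S100a8 and S100a9 together at 5% or more of its unique molecular identifiers (UMIs) for neutrophils, 3 UMIs of Cd79a, Cd79b and Ms4a1 for B cells, 2 of Cd3d, Cd3e, Cd3g and Trac for T cells, 2 of Ncr1, Klrb1c and Klra8 for NK cells, and 3 of Csf1r, Ms4a6c and F13a1 for monocytes. In the order Sham, CLP and HDCA+CLP the gates held 234, 4581 and 8253 neutrophils, 273, 679 and 277 monocytes, 2655, 284 and 277 B cells, 2995, 3026 and 1376 T cells, and 262, 972 and 493 NK cells. The samples are labelled as mononuclear cells, yet neutrophils were 3.6% of the Sham cells, 46.5% of the CLP cells and 76.1% of the HDCA+CLP cells. Each gate held UMIs of all 10 markers of its own lineage in every library, none of them used by the gates. Presence alone does not tell the gates apart, since the T cell gate also held all 10 neutrophil and all 10 NK markers in every library. The libraries held 42427093 to 95178381 UMIs, and pairs of libraries shared 16 to 32 barcodes. A level is the gene's UMIs per 1000000 UMIs of the gate (CPM). Levels given as 3 values stand in the order Sham, CLP, HDCA+CLP throughout. The summed level of each marker list was highest in its own gate in every library. It differed between libraries, with B cell markers at 9418, 4154 and 5324 CPM in B cells and monocyte markers at 27291, 10817 and 11736 CPM in monocytes. Each RNA molecule is tagged once at its 3′ end, so levels were not divided by transcript length.

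Promoter sequences are shown because the members are known for a common control element. RefSeq windows (GRCm38.p6) running from 250 bases before to 50 after the start site were given for 28 of the 38 members. The element was searched as GAAA, any 2 bases, GAAA on either strand, which was found in 15 of the 28 (53.6%) and in 1079 of 27025 genes with a window (3.99%). The 4 promoters printed are those of the members that were at least 2-fold higher in CLP than in Sham in the most lineages, 2 with a match and 2 without. Each runs 5′ to 3′ on the gene's own strand over the 250 bases before the start site, in lower case with the matches in capitals. The windows are Ifit1 at chr19:34640639-34640888 (plus strand), Isg15 at chr4:156200819-156201068 (minus strand), Oasl1 at chr5:114922990-114923239 (plus strand) and Irf7 at chr7:141266425-141266674 (minus strand).
Ifit1: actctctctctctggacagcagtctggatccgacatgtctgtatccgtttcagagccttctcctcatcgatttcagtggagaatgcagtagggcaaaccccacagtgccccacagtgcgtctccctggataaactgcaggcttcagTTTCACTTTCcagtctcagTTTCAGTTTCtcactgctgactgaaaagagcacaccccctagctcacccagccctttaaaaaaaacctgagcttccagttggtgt
Isg15: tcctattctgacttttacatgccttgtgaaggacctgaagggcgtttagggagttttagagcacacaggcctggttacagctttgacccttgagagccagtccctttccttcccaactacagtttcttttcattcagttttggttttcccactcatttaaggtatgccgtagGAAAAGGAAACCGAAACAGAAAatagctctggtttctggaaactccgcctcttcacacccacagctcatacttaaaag
Oasl1: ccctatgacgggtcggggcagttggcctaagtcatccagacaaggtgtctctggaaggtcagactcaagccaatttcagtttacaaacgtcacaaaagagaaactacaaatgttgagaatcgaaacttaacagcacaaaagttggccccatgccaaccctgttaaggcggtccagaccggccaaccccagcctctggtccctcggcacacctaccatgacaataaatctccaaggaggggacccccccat
Irf7: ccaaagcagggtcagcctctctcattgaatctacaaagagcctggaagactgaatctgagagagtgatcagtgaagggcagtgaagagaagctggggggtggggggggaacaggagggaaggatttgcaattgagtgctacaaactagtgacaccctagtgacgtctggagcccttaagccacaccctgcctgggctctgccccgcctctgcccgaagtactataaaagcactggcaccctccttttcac
Ifit1 carried 2 separate matches and Isg15 a run of 3 overlapping ones, while these letters did not occur in the Oasl1 and Irf7 windows. The other 13 members with a match were Ifit3, Ifit3b, Rsad2, Bst2, Ddx58, Ifih1, Eif2ak2, Oas1a, Oas3, Stat2, Slfn5, Trim30a and Phf11b. A match is a match of letters and was not tested as a binding site.

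CLP blood was compared with Sham blood first, to ask how abdominal sepsis changes the members in each lineage. In all 5 lineages the members' median ratio stood above that of all genes. A gene counts as measured with at least 20 UMIs over both libraries and, where 1 library is at 0, a level in the other above that of 3 UMIs in the first. A member low in Sham can thus enter through CLP. A gene counts as higher or lower when its CPM differed at least 2-fold. In T cells 31 of 37 members were higher and 0 lower, against 9.97% and 6.62% of 11633 measured genes. The members' median log2 ratio there was 1.79, against -0.04 for all measured genes, and the intervals of all 37 lay above 0, against 29.3% of all genes. In B cells 25 of 36 were higher and 0 lower, against 9.25% and 13.5% of 10217 genes, with a median of 1.48. In neutrophils 20 of 35 were higher and 1 lower, against 12.4% and 21.8% of 9252 genes, with a median of 1.16. In NK cells 17 of 35 were higher and 0 lower, against 6.65% and 13.0% of 9379 genes, with a median of 0.92. Monocytes had the lowest count, 11 of 37 higher and 1 lower, against 10.4% and 16.9% of 10160 genes, with a median of 0.55. Members not measured were Mx1 and Ifi44 in neutrophils, Ifi44 in B cells, and Ifit3b and Oas2 in NK cells, with 0 to 2 UMIs in Sham and 2 to 27 in CLP.

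The median of all measured genes was -0.21 in neutrophils, -0.20 in monocytes and -0.27 in NK cells, so a scaling on the median of gene ratios moved all ratios there. Under that scaling the all-gene medians were 0.18, 0.01 and 0.05, and members higher numbered 25, 16 and 20 with 0 lower. The shares of all genes higher and lower then were 21.4% and 13.5% in neutrophils, 13.9% and 12% in monocytes, and 10.7% and 5.79% in NK cells. The neutrophil comparison rests on 234 Sham cells with a median of 4229 UMIs against 4581 CLP cells with 8520. The granule genes Camp and Ngp, which mark less mature neutrophils, were at 4137 and 5868 CPM in Sham neutrophils and at 12577 and 29394 in CLP neutrophils. Their part in the members' ratios was not tested. Of the T cells, 0.835%, 8.2% and 2.98% met another gate as well, and the NK gene Klrb1c was at 4.81, 56.7 and 22.6 CPM in them. With all cells meeting 2 or more gates left out in place of scored doublets, 29 of 37 members were higher and 0 lower in CLP T cells, against 8.57% and 7.07% of all genes, and the median was 1.83.

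**Figure D1:**
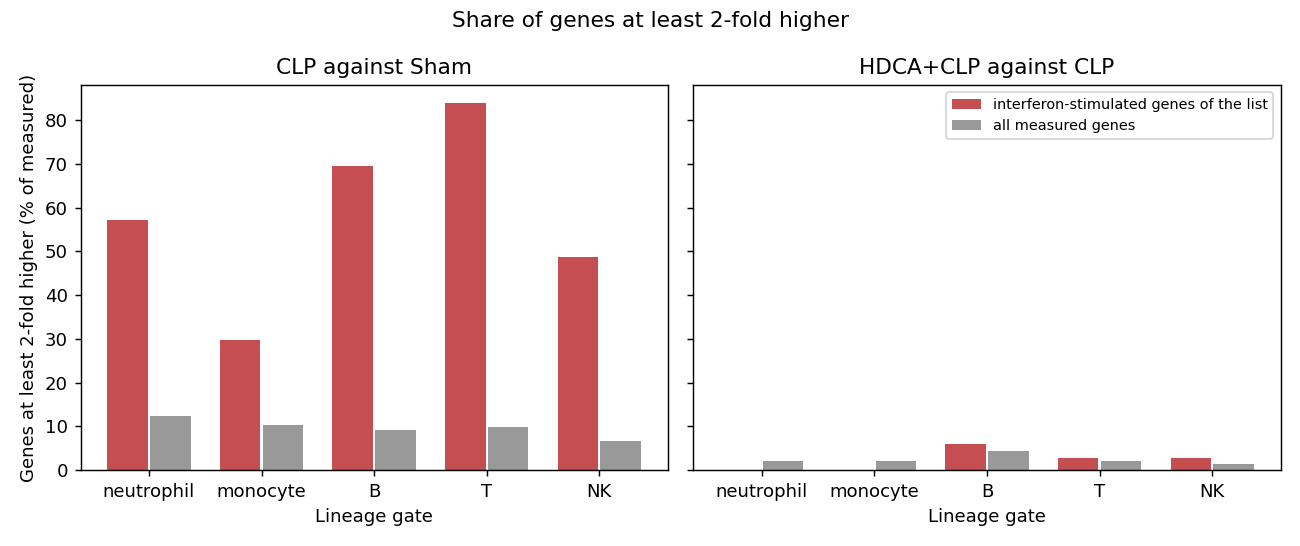
Bars give the percentage of measured genes at least 2-fold higher in each lineage gate, for the listed members (red) and for all measured genes (grey), in CLP against Sham (left) and HDCA+CLP against CLP (right). The left bars reach 83.8% for the members in T cells and 29.7% in monocytes, while the right bars are at or below 6.06% for the members.

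The members that passed 2-fold most widely are these. Ifit1, Ifit3, Isg15, Usp18, Zbp1 and Rtp4 were at least 2-fold higher in CLP in all 5 lineages. A further 7 (Ifit2, Oas1a, Oasl1, Ifih1, Dhx58, Irf7 and Slfn5) were higher in 4 lineages, 11 in 3, 4 in 2 and 5 in 1. Ddx58, Irf9, Phf11b and Epsti1 were higher in 0 lineages. The members at least 2-fold lower in any lineage were Trim30a in neutrophils and Epsti1 in monocytes. These counts describe the same 2 libraries in each lineage, so the lineages are not independent replicates of the comparison. The same counts were not made over all genes, so how unusual it is to pass in many lineages cannot be read from them.

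**Figure D2:**
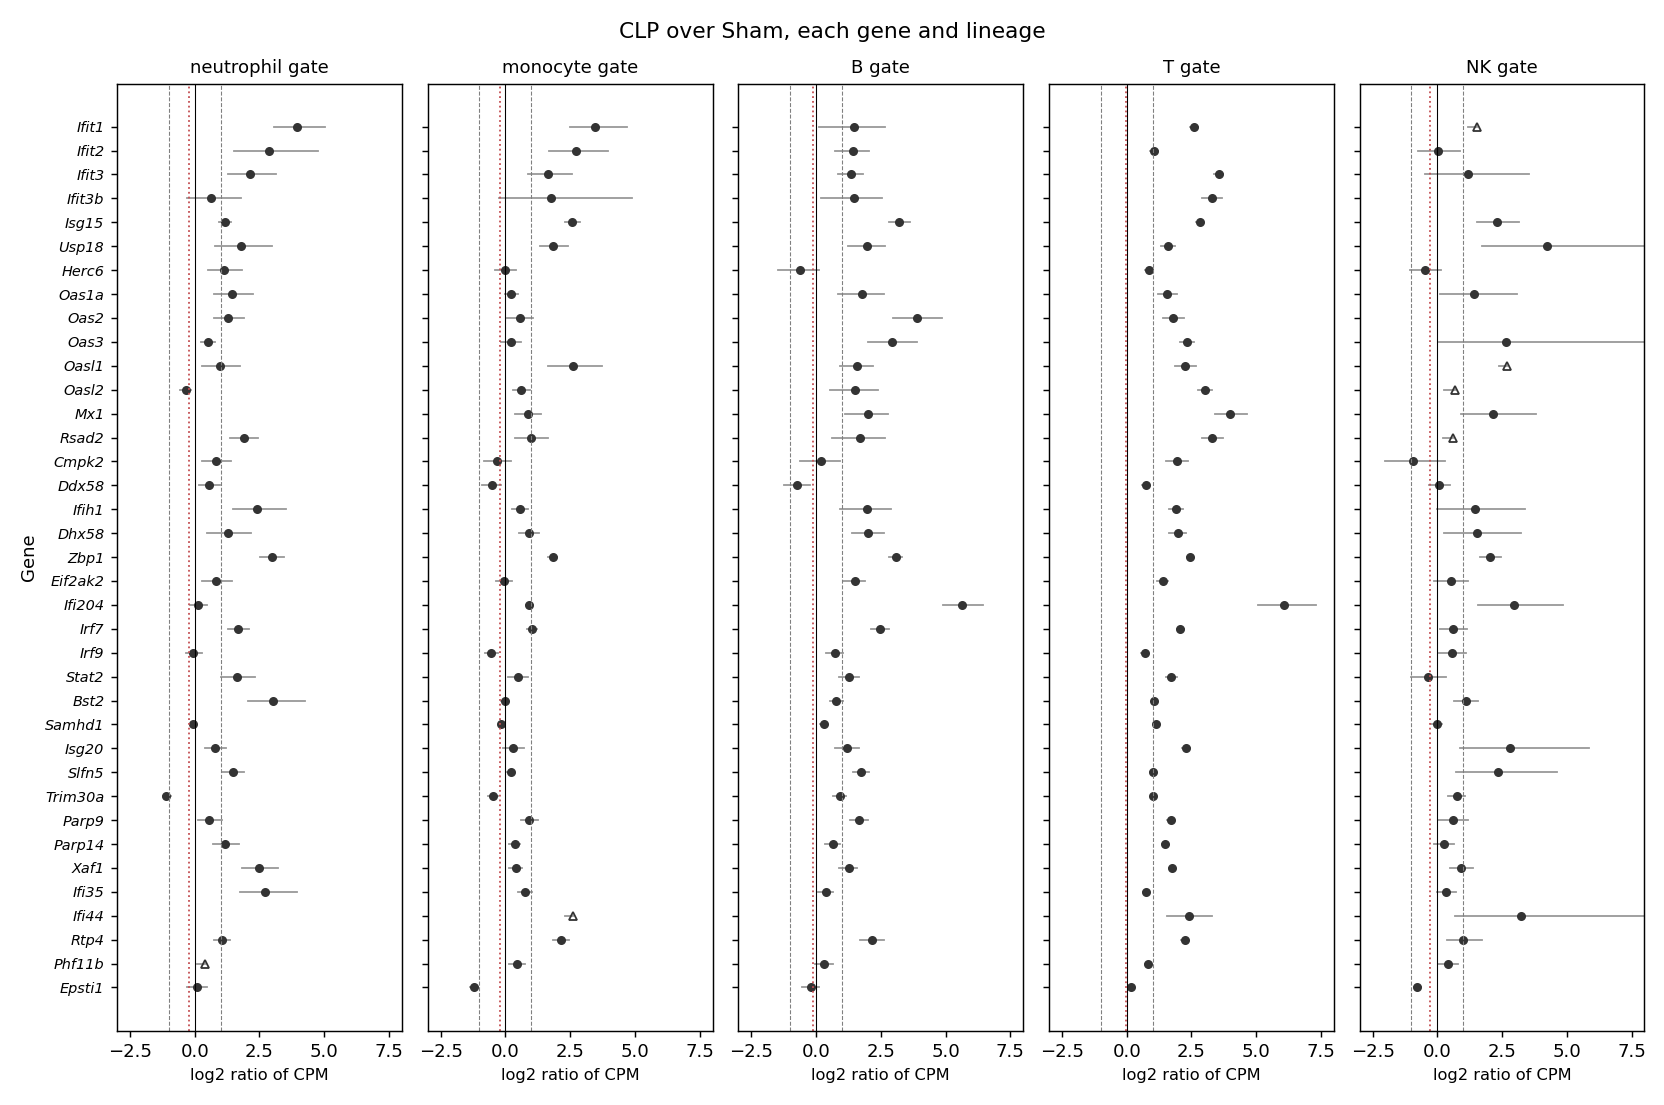
Each point is the log2 ratio of CPM in CLP over Sham for a member (rows) in a lineage gate (panels), with its counting interval (grey line). Open triangles are lower bounds against a Sham level of 0, dashed lines mark 2-fold, and the dotted red line is the median of all measured genes. The T cell points all lie above 0, while Trim30a in neutrophils and Epsti1 in monocytes lie left of the lower dashed line.

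The IFIT proteins bind foreign RNA at its 5′ end and block its translation. In neutrophils Ifit1 was at 8.45, 132 and 147 CPM, a log2 ratio of CLP over Sham of 3.96 (interval 3.08 to 5.02), or 15.6-fold. In monocytes it was at 2.75, 30.8 and 30.5 CPM, 3.48 (interval 2.49 to 4.71) on the log2 scale. Sham was the low library in both lineages, and the CLP and HDCA+CLP levels were close to each other. T cells had the highest Ifit3 level of the lineages in both septic libraries, 14.4, 169 and 140 CPM, with a log2 ratio of 3.55 (interval 3.38 to 3.73). Its paralogue Ifit3b was lower in level with a like ratio in T cells, 3.25, 31.6 and 33.7 CPM, with a log2 ratio of 3.28 (interval 2.91 to 3.67). In NK cells Ifit1 had 0 UMIs in Sham, and 7.18 CPM in CLP was at least 2.93-fold above the level of 3 UMIs. Ifit2 did not stand apart in NK cells, at 13.9, 14 and 19.6 CPM. All 4 IFIT members were at least 2-fold higher in monocytes, B cells and T cells. Of the 90-base words at the 3′ end of Ifit3, 5.28% also occurred in Ifit3b, so a small part of the reads of this pair cannot be assigned.

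Isg15 is a ubiquitin-like protein that is attached to other proteins and also secreted, Herc6 is the ligase that attaches it in mice, and Usp18 removes it and restrains the receptor. Isg15 was at 112, 252 and 410 CPM in neutrophils, 35.8, 214 and 290 CPM in monocytes and 27.6, 195 and 152 CPM in T cells. The CLP over Sham log2 ratio was 1.16 (interval 0.92 to 1.42) in neutrophils, 2.58 (interval 2.30 to 2.88) in monocytes and 2.82 (interval 2.69 to 2.95) in T cells. Sham was lowest in all 3 lineages, while the order of the septic libraries differed: HDCA+CLP was highest in neutrophils and monocytes, and CLP in T cells. Usp18 was higher in CLP in every lineage, with log2 ratios of 1.61 to 4.24. The upper end came from NK cells, at 0.816, 15.4 and 29 CPM, where Sham held 1 UMI and the interval ran from 1.72 to 9.56. Herc6 passed 2-fold in neutrophils alone, at 17.8, 38.6 and 41.7 CPM, with a log2 ratio of 1.12 (interval 0.50 to 1.81). In B cells it was at 18.9, 12.3 and 21.5 CPM, a log2 ratio of -0.62 (interval -1.45 to 0.12). In NK cells it was at 26.9, 19.5 and 35.2 CPM, -0.47 (interval -1.04 to 0.14), so CLP was the lowest library in both.

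**Figure D3:**
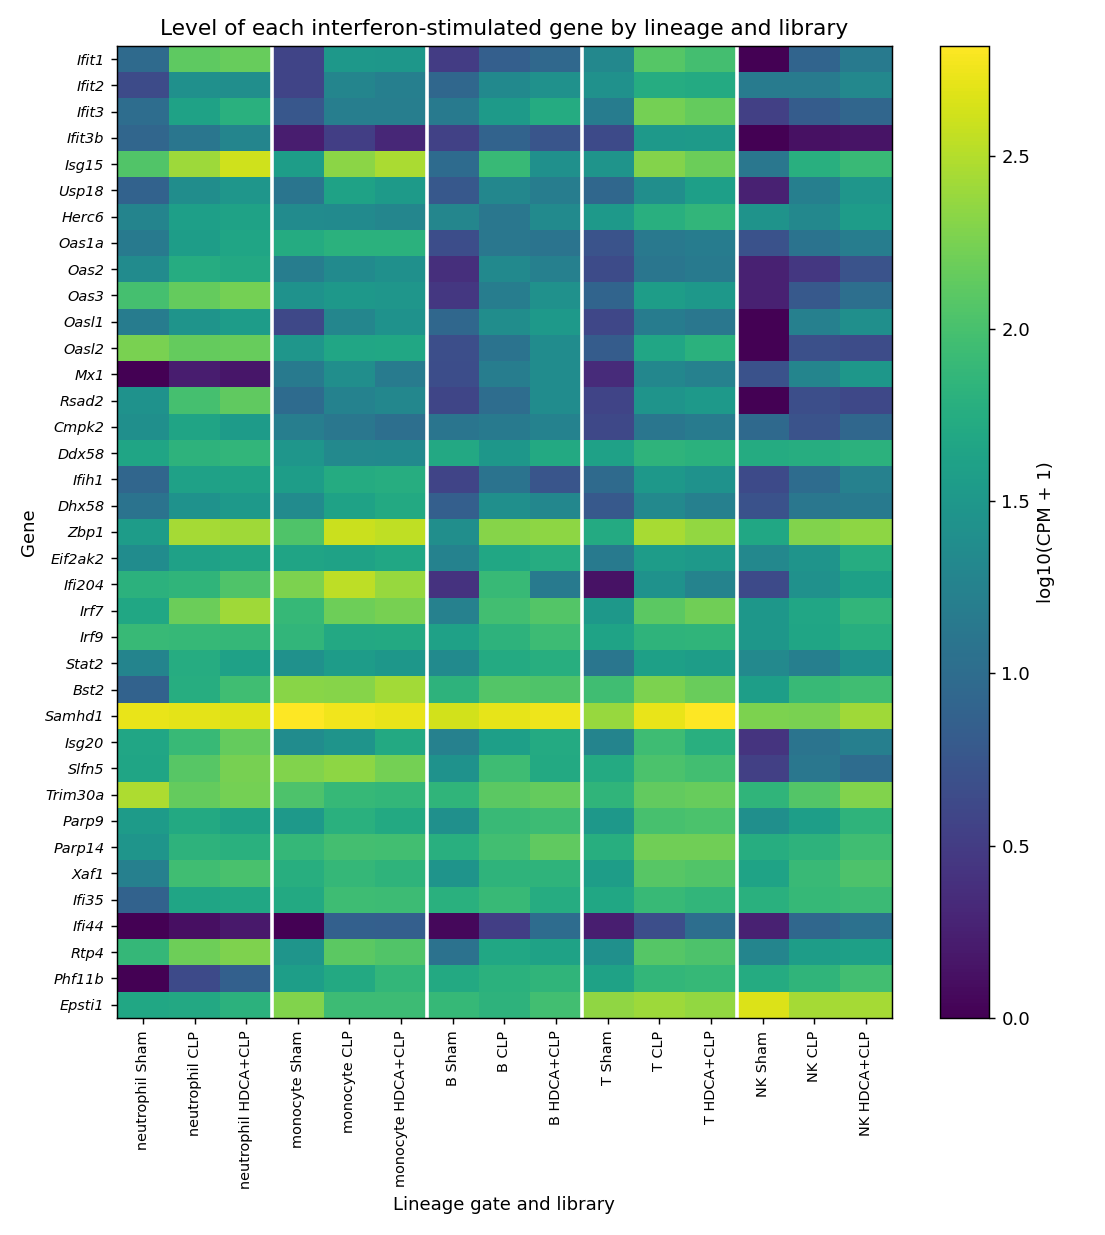
Colour gives log10(CPM + 1) of each member (rows) in each lineage gate and library (columns), with white lines between lineages. Samhd1 is bright in every column, at 179 to 661 CPM, and the Ifit1 and Isg15 rows are brighter in CLP than in Sham in every lineage.

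The OAS enzymes sense double-stranded RNA and make the messenger that switches on RNase L, while the OAS-like proteins Oasl1 and Oasl2 lack or have little of that activity and act on translation and sensing. All 5 were at least 2-fold higher in CLP B cells and T cells. Oas2 stood out in B cells at 1.39, 20.8 and 15.8 CPM, a log2 ratio of 3.90 (interval 2.97 to 4.87), although the CLP level rests on 27 UMIs. The paralogues Oasl1 and Oasl2 parted in neutrophils: Oasl1 was at 14.4, 28 and 35.1 CPM and Oasl2 at 178, 140 and 146 CPM. The Oasl2 log2 ratio in neutrophils was -0.35 (interval -0.55 to -0.14), and 0.04 when scaled on the median of gene ratios. In T cells Oasl2 was at 5.68, 46.1 and 62.1 CPM, 3.02 (interval 2.74 to 3.31) on the log2 scale. In NK cells Oasl1 was at 0, 15.9 and 24.3 CPM, and CLP was at least 6.49-fold above the level of 3 Sham UMIs. Oas1a is reported as uncertain, since 53.6% of the 90-base words at its 3′ end also occurred in Oas1g. Its log2 ratios ran from 0.22 in monocytes to 1.77 in B cells.

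Mx1 is a dynamin-like GTPase that traps viral nucleocapsids, and C57BL/6 mice are known to carry a defective allele. Rsad2 (viperin) makes a chain-terminating nucleotide from the product of its neighbour gene Cmpk2. Mx1 was low everywhere, and its highest CLP level was in monocytes, at 13.1, 23.7 and 14.1 CPM. In T cells it was at 1.21, 19.4 and 16.5 CPM, a log2 ratio of 4.0 (interval 3.41 to 4.65). In neutrophils Mx1 had 0 UMIs in Sham and was at 0.676 CPM in CLP, below the Sham floor of 2.54 CPM, so no ratio is given. Rsad2 was highest in neutrophils, 26.2, 97.3 and 136 CPM, a log2 ratio of 1.89 (interval 1.38 to 2.45), and HDCA+CLP was the highest library. In T cells Rsad2 was at 2.82, 28 and 32.3 CPM, 3.31 (interval 2.92 to 3.73) on the log2 scale. Cmpk2 did not follow Rsad2 in every lineage: it passed 2-fold in T cells alone, with 1.93 (interval 1.51 to 2.37), and was at 0.19 (interval -0.63 to 0.92) in B cells.

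Among the nucleic acid sensors, Ddx58 (RIG-I), Ifih1 (MDA5) and the regulator Dhx58 (LGP2) bind RNA, Zbp1 binds Z-form nucleic acids and can start necroptosis, Eif2ak2 (PKR) halts translation on double-stranded RNA, and Ifi204 binds DNA. Zbp1 was the member with the second-highest CLP level in every lineage. It was at 35.5, 278 and 259 CPM in neutrophils, 111, 393 and 354 CPM in monocytes and 23.8, 201 and 218 CPM in B cells. The log2 ratios of CLP over Sham were 2.97 (interval 2.53 to 3.44), 1.82 (interval 1.66 to 1.99) and 3.08 (interval 2.83 to 3.32). In T and NK cells they were 2.43 (interval 2.34 to 2.53) and 2.03 (interval 1.64 to 2.44). In NK cells it was at 46.5, 190 and 220 CPM, and in T cells at 52, 281 and 231 CPM. In each of the 5 lineages Sham was the low library, and the log2 ratios of HDCA+CLP over CLP lay between -0.28 and 0.21. Ddx58 did not pass 2-fold in any lineage: its log2 ratios were between -0.72 (interval -1.22 to -0.25) in B cells and 0.73 (interval 0.60 to 0.86) in T cells. In B cells Ddx58 was at 49.3, 30 and 50.8 CPM, so CLP was the low library there. Ifih1 was at 7.61, 40.3 and 40.7 CPM in neutrophils, 2.40 (interval 1.48 to 3.54) on the log2 scale.

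Ifi204 had the largest log2 ratios in T and B cells, and in B cells most of its CLP UMIs lay in few cells. In monocytes, where it was highest, Ifi204 was at 182, 347 and 242 CPM. In B cells it was at 1.56, 77.7 and 13.6 CPM, and the 101 CLP UMIs lay in 15 of 284 cells. Of these, 93 came from the 9 CLP B cells that held over 2 UMIs of the myeloid gene Lyz2. That left 8 UMIs, or 7.43 CPM, in the other 275, against 9 UMIs, or 0.746 CPM, in the 2640 such Sham cells. The 10 monocyte markers together were at 732 CPM in Sham B cells, 2161 in CLP B cells and 766 in HDCA+CLP B cells. In T cells Ifi204 was at 0.389, 26.2 and 17.3 CPM, and 152 of the 426 CLP UMIs came from 20 cells with over 2 Lyz2 UMIs. The other 3006 CLP T cells held it at 17.2 CPM, against 0.195 CPM in the 2988 such Sham cells. Those B cell UMIs were too few for an Ifi204 ratio, and the T cell ratios were not recomputed without the cells over 2 Lyz2 UMIs. Whether these cells are doublets was not tested. Without the B cells over 2 Lyz2 UMIs, 22 of 35 members were higher and 0 lower in B cells, against 6.04% and 14% of all genes.

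Irf7, Irf9 and Stat2 carry the signal itself: Irf7 amplifies interferon production, and Stat2 and Irf9 are parts of the complex that binds the response element. Irf7 was at 47.3, 151 and 258 CPM in neutrophils, a log2 ratio of 1.67 (interval 1.30 to 2.08). In B cells it was at 16.4, 90.8 and 116 CPM, 2.47 (interval 2.13 to 2.80) on the log2 scale, and in T cells at 30.7, 128 and 160 CPM, 2.07 (interval 1.94 to 2.20). Irf7 thus stood above 2-fold in every lineage but NK cells, where its log2 ratio was 0.61 (interval 0.11 to 1.15). Stat2 passed 2-fold in neutrophils, B cells and T cells, with 1.64 (interval 1.02 to 2.33), 1.28 (interval 0.87 to 1.67) and 1.73 (interval 1.52 to 1.95). Irf9 did not pass it in any lineage. In monocytes it was at 71.2, 49 and 51.2 CPM, a log2 ratio of -0.54 (interval -0.78 to -0.30), with Sham the highest library, while the B cell ratio was 0.73 (interval 0.38 to 1.06).

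Bst2 (tetherin) holds budding virions at the cell surface, Samhd1 depletes the nucleotides needed for reverse transcription, Isg20 is an exonuclease of RNA, and Trim30a and Slfn5 belong to families with restriction activity. Samhd1 had the highest CLP level of the members in all lineages but NK cells, at 534, 511 and 476 CPM in neutrophils and 661, 582 and 534 CPM in monocytes. In those lineages its log2 ratios were -0.06 (interval -0.18 to 0.05) and -0.18 (interval -0.26 to -0.11). The septic libraries were thus at or slightly below Sham; scaled on the median of gene ratios, the neutrophil value was 0.32. T cells had 243, 539 and 660 CPM and a log2 ratio of 1.15 (interval 1.10 to 1.20). B cells had 422, 516 and 564 CPM, and NK cells 183, 179 and 262 CPM, where the log2 ratio of -0.03 (interval -0.24 to 0.18) became 0.29 under the same scaling. Trim30a was the member lower in CLP neutrophils, at 300, 141 and 170 CPM, a log2 ratio of -1.09 (interval -1.24 to -0.93). That value was -0.70 when scaled on the median of gene ratios and -0.84 when mitochondrial, ribosomal protein, haemoglobin, S100a8 and S100a9 genes were left out of the total. In T cells Trim30a was at 68.5, 138 and 147 CPM, 1.01 (interval 0.92 to 1.11) on the log2 scale, and in B cells at 68.4, 128 and 140 CPM. Monocytes held it at 106, 76.4 and 73.5 CPM, -0.47 (interval -0.67 to -0.28). Sham was thus the high library in neutrophils and monocytes and the low one in B and T cells.

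Bst2 in neutrophils was at 6.76, 55.5 and 89.4 CPM, a log2 ratio of 3.04 (interval 2.06 to 4.25) that rests on 8 Sham UMIs. With scored doublets kept in, the ratio was 0.77, so the call depends on doublet removal. In monocytes Bst2 was at 206, 201 and 269 CPM, and in T cells at 88.4, 183 and 148 CPM. The T cell ratio was 1.05 (interval 0.97 to 1.14), while that in monocytes was -0.03 (interval -0.16 to 0.10). Slfn5 was at least 2-fold higher in CLP in every lineage but monocytes, where it was at 190, 218 and 168 CPM. Isg20 passed 2-fold in B, T and NK cells, and in T cells it was at 17.7, 86.7 and 59.9 CPM, a log2 ratio of 2.29 (interval 2.13 to 2.46).

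The remaining 8 members include the ADP-ribosyltransferases Parp9 and Parp14, the apoptosis factor Xaf1 and the receptor transporter Rtp4. Rtp4 was at 28.9, 127 and 113 CPM in monocytes, a log2 ratio of 2.14 (interval 1.82 to 2.47). Ifi44 in monocytes was at 0, 6.4 and 6.1 CPM, and CLP was at least 6.2-fold above the level of 3 Sham UMIs. Ifi35 was at 6.76, 44.9 and 46.8 CPM in neutrophils, with 8 UMIs in Sham, and its log2 ratio was 2.73 (interval 1.75 to 3.95). Epsti1 was lower in CLP than in Sham in monocytes and NK cells: monocytes held 194, 84.1 and 84.6 CPM and NK cells 472, 276 and 273 CPM. In neutrophils it was at 47.3, 49.9 and 64.2 CPM, 0.08 (interval -0.31 to 0.49) on the log2 scale. Its log2 ratios in monocytes and NK cells were -1.21 (interval -1.36 to -1.05) and -0.77 (interval -0.91 to -0.63), against 0.18 (interval 0.12 to 0.24) in T cells, at 225, 254 and 228 CPM. B cells held 76.2, 66.1 and 92.7 CPM, -0.20 (interval -0.54 to 0.12) on the log2 scale. With the scaling on the median of gene ratios the ratios were -0.99 in monocytes and -0.45 in NK cells. Phf11b stayed between 0.32 and 0.81 in the lineages with a Sham level above 0, and 18.2% of the words at its 3′ end also occurred in Phf11c or Phf11d.

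Monocyte subsets differed between the libraries. Cells with at least 3 UMIs of Ly6c2, a gene of classical monocytes, were 128 of 273 in Sham, 572 of 679 in CLP and 247 of 277 in HDCA+CLP. Within them 8 of 36 members were higher in CLP and 1 was lower, against 10.8% and 15.3% of all genes, with a median of 0.53. Among the monocytes with fewer Ly6c2 UMIs, 145 in Sham and 107 in CLP, 19 of 35 members were higher and 0 lower, against 9.04% and 16% of all genes, with a median of 1.07 against -0.18 for all genes. Isg15 had a log2 ratio of 3.30 in these cells. These subsets were drawn after the data were seen.

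The members' summed level gives the size of the programme in each lineage. It was 2010, 3233 and 3838 CPM in Sham, CLP and HDCA+CLP neutrophils, 2501, 3403 and 3327 in monocytes, 1182, 2277 and 2414 in B cells, 1299, 3488 and 3402 in T cells, and 1305, 1658 and 2171 in NK cells. Sham was lowest in every lineage. The CLP over Sham fold was widest in T cells, 2.69, and narrowest in NK cells, 1.27. The 3 members highest over the 3 libraries together were then left out in each lineage. Without them the fold was 3.1 in T cells and 1.68 in NK cells, and monocytes were lowest at 1.34. Samhd1, Trim30a and Oasl2 made up 50.4% of the sum in Sham neutrophils. The neutrophil fold was 1.61 with all members. It was 2.19 without the 3 highest over the libraries together, which were Samhd1, Isg15 and Trim30a. In Sham 15 members were highest in monocytes and 13 in neutrophils, whereas in CLP 12 were highest in monocytes, 12 in neutrophils and 10 in T cells. Ifit3, Parp9, Parp14 and Xaf1 were among the 10. Neighbouring lineages in these orders were not tested against each other.

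Cells were thinned to 1000 UMIs each to compare the spread over cells. The mean of member UMIs per thinned cell went from 1.31 in Sham T cells to 3.61 in CLP and 3.46 in HDCA+CLP T cells. The share of T cells with none was 32.7%, 12.7% and 11.3% in that order, against 1.24%, 0.496% and 0.436% in the unthinned cells. The share with 5 or more was 3.34%, 27.7% and 26.5%. The quartiles and the 90th percentile all stood higher in the septic libraries than in Sham. In neutrophils the means were 2.33, 3.67 and 4.32, and in NK cells 1.33, 1.68 and 2.16. The tenth of cells with most member UMIs held 32.9%, 31.4% and 30.5% of them in Sham, CLP and HDCA+CLP neutrophils. Thinning left out 1 Sham, 41 CLP and 50 HDCA+CLP neutrophils with fewer UMIs, and 0 to 19 cells in each other gate.

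**Figure D4:**
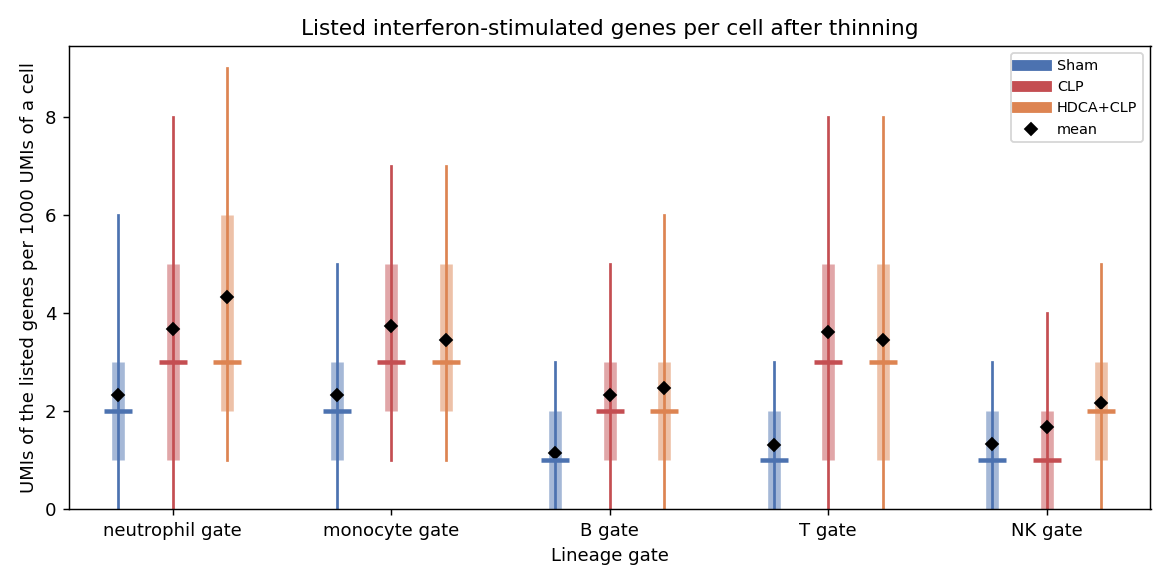
For each lineage gate and library the thin line spans the 10th to 90th percentile of member UMIs per thinned cell, the thick bar the 25th to 75th, the coloured dash is the median and the diamond the mean. The T cell median was 1 in Sham and 3 in CLP and HDCA+CLP, and the 90th percentile was 3 in Sham and 8 in the others.

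HDCA+CLP blood was compared with CLP blood to ask whether the bile acid given with CLP goes with other member levels. The comparison shares its CLP library with the first, so the values are given side by side and no relation between them is drawn. In neutrophils 0 of 37 members were 2-fold higher and 0 lower, against 2.13% and 1.32% of 11103 genes. Smaller shifts were common there: the members' median log2 ratio was 0.26 against -0.03 for all genes, and 24 intervals lay above 0 and 7 below, against 18.9% and 23.6% of all genes. In NK cells 1 of 36 was higher and 0 lower, against 1.46% and 1.88% of 9541 genes. The NK median was 0.46 against 0.06 for all genes, with 20 intervals above 0 and 0 below, against 13.5% and 7.24% of all genes. In monocytes 0 of 37 were higher and 1 lower, against 2.12% and 2.28% of 10116 genes, with a median of -0.03. Monocyte intervals lay above 0 for 7 members and below for 8, against 14.5% and 8.75% of all genes. In T cells 1 of 37 was higher and 0 lower, against 2.03% and 1.72% of 11040 genes, with a median of -0.11 against 0.11 for all genes. T cell intervals lay above 0 for 6 members and below for 11, against 21.7% and 6.80% of all genes. In B cells 2 of 33 were higher and 2 lower, against 4.33% and 6.01% of 7275 genes, with a median of 0.14. B cell intervals lay above 0 for 6 members and below for 3, against 12.6% and 11.8% of all genes. In every lineage but B cells no more than 1 member passed 2-fold in either direction, and in B cells 2 did in each. These shares were near the background in B cells as in the others. The NK count depended on how doublets were treated.

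**Figure D5:**
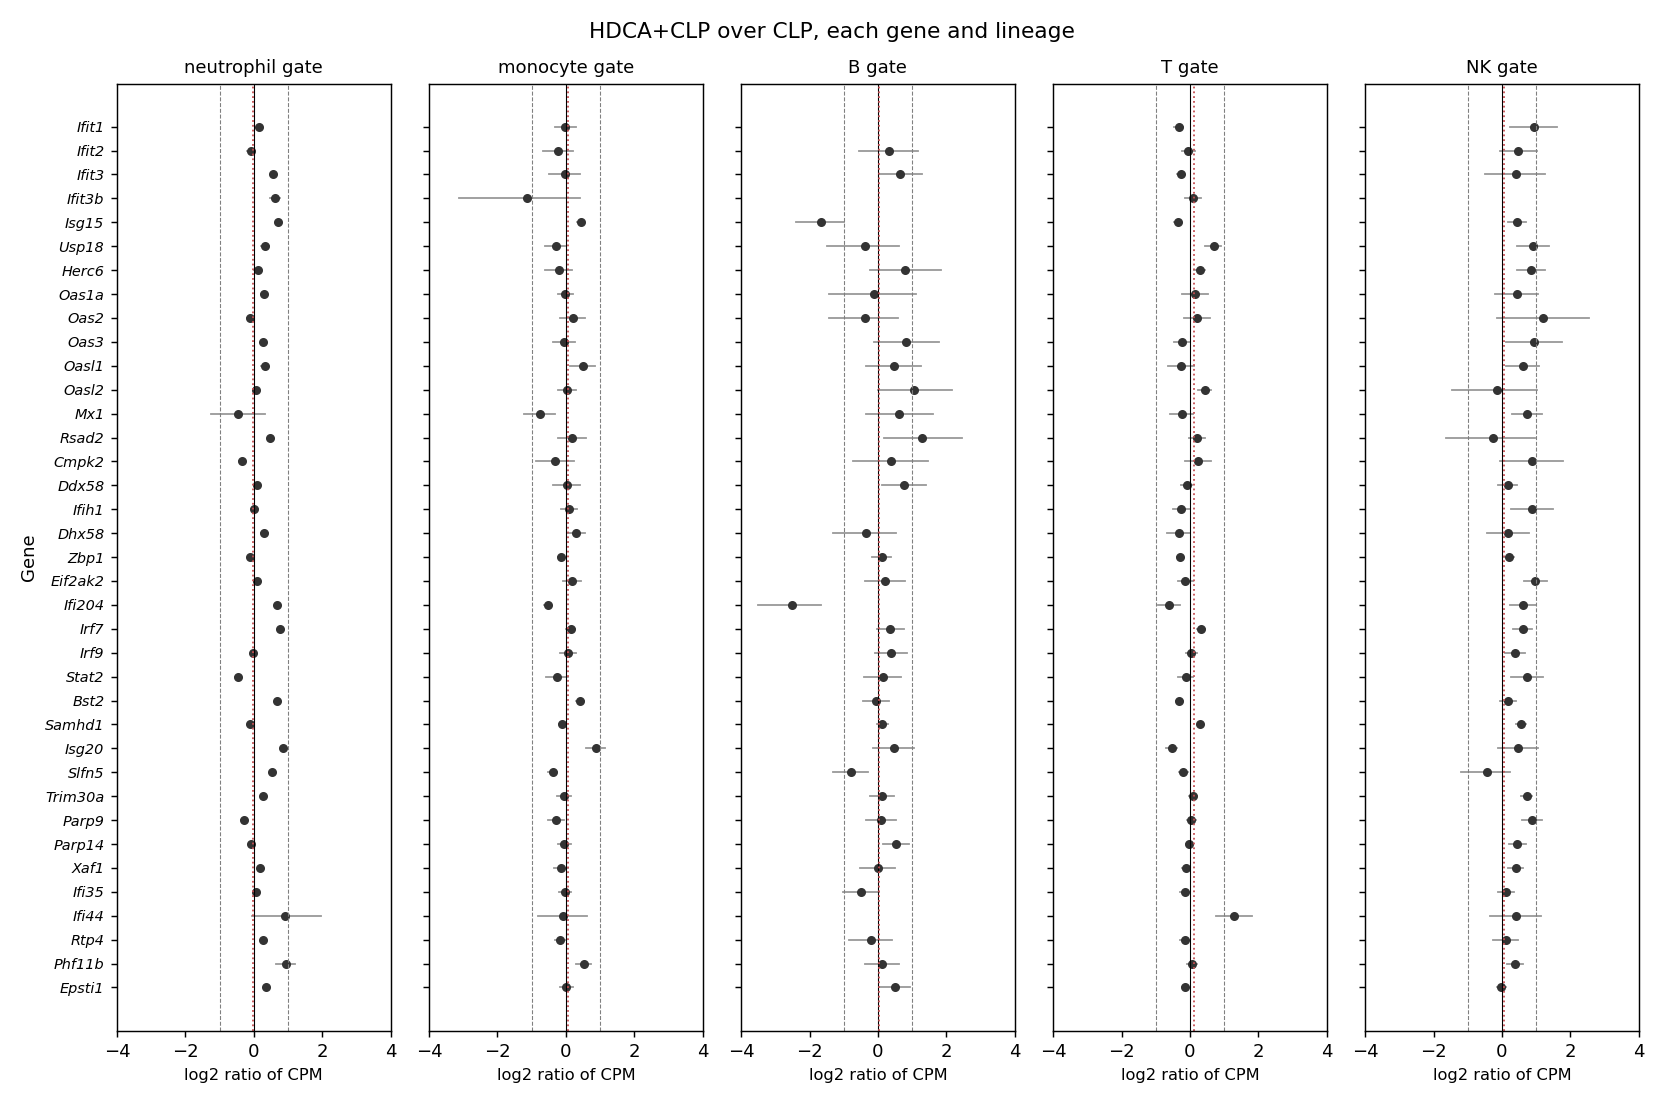
Each point is the log2 ratio of CPM in HDCA+CLP over CLP for a member (rows) in a lineage gate (panels), with its counting interval (grey line). Dashed lines mark 2-fold and the dotted red line is the median of all measured genes. Most points lie between the dashed lines, and the NK points sit mainly right of 0.

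In neutrophils the members furthest above CLP were Isg20, Irf7 and Isg15. Isg20 was at 45.7, 77.9 and 142 CPM, and HDCA+CLP was 1.82-fold above CLP, a log2 ratio of 0.86 (interval 0.80 to 0.92). Irf7 and Isg15 followed with 0.77 (interval 0.73 to 0.81) and 0.70 (interval 0.67 to 0.74). On the other side Stat2 was at 17.8, 55.3 and 39.8 CPM, -0.47 (interval -0.56 to -0.39) on the log2 scale, so its HDCA+CLP level lay between Sham and CLP. Cmpk2 was at 24.5, 43.3 and 34.3 CPM, -0.34 (interval -0.43 to -0.25), and Parp9 at 34.7, 50.9 and 41.4 CPM, -0.30 (interval -0.38 to -0.21). The neutrophil intervals are narrow because the gate held 39940708 and 67256989 UMIs, and they say nothing of the spread between animals.

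In NK cells the furthest were Eif2ak2, Parp9 and Trim30a. Eif2ak2 was at 19.6, 27.9 and 54.8 CPM, a log2 ratio of HDCA+CLP over CLP of 0.98 (interval 0.64 to 1.31), just under 2-fold. Parp9 was at 24.5, 36.8 and 67.7 CPM, 0.88 (interval 0.58 to 1.18), and Trim30a at 69.4, 116 and 190 CPM, 0.72 (interval 0.55 to 0.89). For these 3 the libraries stood in the order Sham, CLP, HDCA+CLP. Oas2 passed 2-fold with 11 UMIs in each library, and its interval of -0.15 to 2.54 spans 0. Slfn5 was at 2.45, 12.3 and 9 CPM, -0.45 (interval -1.20 to 0.24), and Rsad2 at 0, 3.76 and 3.13 CPM, -0.26 (interval -1.64 to 0.96). The intervals of both span 0, and so does that of Epsti1, -0.02 (interval -0.15 to 0.11). When cells meeting 2 or more gates were left out in place of scored doublets, 6 of 36 NK members were 2-fold higher, against 1.72% of all genes, and the Slfn5 and Rsad2 ratios were 0.33 and 0.46.

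In monocytes Isg20 was at 22.4, 27.7 and 50.7 CPM, 1.83-fold higher in HDCA+CLP than in CLP, with a log2 ratio of 0.87 (interval 0.60 to 1.14). Isg15 and Bst2 were at 0.44 (interval 0.33 to 0.54) and 0.42 (interval 0.31 to 0.53). Ifi204 was lower, -0.52 (interval -0.63 to -0.42), as were Mx1 at -0.75 (interval -1.21 to -0.32) and Slfn5 at -0.38 (interval -0.51 to -0.25). Ifit3b was the member past 2-fold lower, with 24 and 4 UMIs and an interval of -3.12 to 0.41. Among the monocytes with under 3 Ly6c2 UMIs, 107 in CLP and 30 in HDCA+CLP, the ratio of Isg20 was -0.37 and that of Bst2 -0.67. The monocyte gates also held neutrophil markers at 581, 6541 and 8259 CPM in Sham, CLP and HDCA+CLP. Their part in these ratios was not tested.

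In T cells Ifi44 was at 0.729, 3.81 and 9.33 CPM, a log2 ratio of 1.29 (interval 0.75 to 1.83) on 62 CLP and 60 HDCA+CLP UMIs. Usp18 was at 7.77, 23.7 and 38.1 CPM, 0.69 (interval 0.45 to 0.92), and the Oasl2 ratio was 0.43 (interval 0.25 to 0.61). For these 3 HDCA+CLP was the highest library. Isg20, Ifi204 and Isg15 were lower in HDCA+CLP, at -0.53 (interval -0.70 to -0.37), -0.60 (interval -0.92 to -0.30) and -0.36 (interval -0.47 to -0.26). Isg15 and Isg20 thus lay above CLP in neutrophils and all monocytes together and below it in T cells, a difference between lineages that was not tested.

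In B cells the members past 2-fold were Rsad2 and Oasl2, higher, and Ifi204 and Isg15, lower. Which members were higher depended on the processing. At a mitochondrial limit of 5%, 3 of 31 were higher, against 8.46% of all genes, and neither Rsad2 nor Oasl2 was among them. With doubled gates 3 of 31 were higher, against 4.19% of all genes, and 1 of these was Rsad2 or Oasl2. Rsad2 was at 2.87, 9.23 and 22.6 CPM, on 12 and 20 UMIs in the septic libraries, with a log2 ratio of 1.29 (interval 0.19 to 2.46). Oasl2 was at 1.07 (interval 0.01 to 2.17). Isg15 was at 8.61, 79.2 and 24.9 CPM, a log2 ratio of -1.67 (interval -2.41 to -1.0). Among B cells with at most 2 Lyz2 UMIs it was at 62.2 CPM in CLP and 20.7 CPM in HDCA+CLP, a log2 ratio of -1.59. The Ifi204 ratio, -2.52 (interval -3.52 to -1.65), could not be repeated there, since these cells held 8 and 9 UMIs. Parp14 was at 59.1, 92.3 and 134 CPM, 0.54 (interval 0.16 to 0.92), and the Ddx58 ratio was 0.76 (interval 0.11 to 1.42). Slfn5 was at 26.5, 87.7 and 50.8 CPM, -0.79 (interval -1.32 to -0.28), so it lay between Sham and CLP in HDCA+CLP. Haemoglobin and other red cell genes were at 1006 CPM in HDCA+CLP B cells and 2.31 CPM in CLP B cells, and their part in these ratios was not tested.

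Upstream of the members, transcripts of the interferons themselves were nearly absent. Of 20 type I interferon genes, 2 had a UMI in a given library, with 3 UMIs in Sham, 9 in CLP (8 of them Ifnb1) and 2 in HDCA+CLP. The highest summed level was 0.121 CPM, in CLP, and none of the 20 was measured in a lineage. Among 16 receptor and signalling genes no common direction was seen: 6 were at least 2-fold higher and 1 lower in CLP T cells, and 1 higher and 5 lower in CLP neutrophils. Socs1, a feedback inhibitor of the kinases, stood at 10.1 CPM in Sham neutrophils and 47.6 in those of CLP. Socs3, another inhibitor, was at 345 and 78.1 CPM there but at 76.8 and 469 CPM in monocytes. Jak1 was at 330 and 140 CPM in neutrophils. Irf8 went from 3.74 to 38.5 CPM in T cells. Of 17 genes of nucleic acid sensing, 13 measured in neutrophils included 2 higher and 2 lower, and 14 in T cells 4 higher and 1 lower. Ikbke, a kinase that activates Irf3 and Irf7, was at 4.23 and 33.6 CPM in Sham and CLP neutrophils and at 58.8 CPM in HDCA+CLP.

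A list of other interferon-stimulated genes had lower medians than the members in CLP. Of 57 listed, 19 of 55 measured were at least 2-fold higher and 0 lower in T cells, with a median of 0.76, and 12 of 49 were higher and 5 lower in neutrophils, with a median of 0.41. In monocytes, B cells and NK cells 11 of 52, 12 of 50 and 7 of 48 were higher, against 10.4%, 9.25% and 6.65% of all genes. In each, 4 were lower, against 16.9%, 13.5% and 13% of all genes. The medians of this list there were 0.10, -0.04 and -0.24, against -0.20, -0.10 and -0.27 for all genes. Both lists were chosen with earlier results of these data known. The guanylate-binding proteins and immunity-related GTPases, which attack vacuoles holding pathogens and respond strongly to interferon gamma, were 14 of 15 higher in CLP monocytes, with a median of 2.51. Iigp1 had 0 UMIs in Sham monocytes, 112 CPM in CLP and 50.7 CPM in HDCA+CLP. In HDCA+CLP against CLP these GTPase genes had medians of -0.72 in neutrophils and -0.78 in monocytes, while the members' medians were 0.26 and -0.03. Their medians in NK and T cells were 0.44 and 0.19. The difference between the lists was not tested, and both were read from the same libraries. Ube2l6, the enzyme that loads Isg15, was at 3.38, 53.7 and 80.2 CPM in neutrophils. Among the Ifitm genes and Ifi27l2a, Ifitm6 stood at 1809 CPM in Sham neutrophils and 9205 in those of CLP, and Ifitm1 at 5697 and 1289.

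The motif was set beside the ratios. In neutrophils 9 of 15 measured members with a match were at least 2-fold higher in CLP, with a median log2 ratio of 1.44, against 5 of 12 without one and a median of 0.89. In T cells the medians were 1.73 with and 1.75 without a match, and in monocytes 0.44 and 0.40. In B cells they were 1.48 and 0.96, and in NK cells 1.15 and 0.55. The Gbp and immunity-related GTPase genes carried the motif in 10 of 11 windows (90.9%), and the other interferon-stimulated genes in 24 of 51 (47.1%). These shares are a description of letters in fixed windows.

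RNA of neutrophil genes was measured as a background in the other gates. S100a8 and S100a9 in monocytes, B, T and NK cells were at 0.764% to 2.74% of their neutrophil level in CLP and HDCA+CLP, and at most 0.514% in Sham. Carried over at that share, neutrophil RNA would make up at most 3.16% of the members' summed level in any gate. That share can be too low, since cells rich in S100a8 and S100a9 were gated as neutrophils first. The 10 neutrophil markers not used by the gates were at 6541 and 8259 CPM in CLP and HDCA+CLP monocytes. They were at 1708 and 1513 CPM in B cells and at 85103 and 85580 CPM in neutrophils. Their source in the other gates was not tested, so 3.16% is not an upper bound. At the S100a8 and S100a9 share, the neutrophil part was larger for members at low levels. In HDCA+CLP NK cells it was 52.7% for Ifit3b, 48.9% for Rsad2 and 46.9% for Oasl2. In HDCA+CLP B cells it was 32.1% for Ifit1 and 28.4% for Isg15, and in HDCA+CLP monocytes 47.1% for Ifit3b. In CLP it reached 27.1% in NK cells, for Oasl2, and 22.5% in B cells, for Ifit1, and in T cells no member passed 7.99% in any library. The 8 plasmacytoid dendritic cell markers together were at 206, 133 and 117 CPM in monocytes, 96.3, 101 and 110 CPM in NK cells, 84.3, 62.8 and 83.7 CPM in T cells, 17.9, 24.6 and 26 CPM in B cells, and 59.2, 22.6 and 26.7 CPM in neutrophils. Of these, Siglech was at 0 in the neutrophil and NK gates of all 3 libraries. It was at 11.4, 1.46 and 0.265 CPM in monocytes, 0.82, 0 and 0 CPM in B cells, and 0, 0 and 0.622 CPM in T cells. The part of such cells in the ratios was not tested.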

How the data were processed

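Blood cells of mice were measured as 3 droplet libraries with 3′ tags and UMIs, 1 library per group. The authors deposited UMI counts, not normalized, for every gene in each cell barcode, made with Cell Ranger 5.0.1, per the file headers. The mouse build mm39, R 4.0.3 and Seurat 4.0.6 are also named, per the submitters' processing notes. The annotation of genes is not given in the sources used, and the files hold no coordinates. The 38 members and every other list were chosen with earlier results of these data known.

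The libraries held 7159, 11387 and 12205 barcodes in Sham, CLP and HDCA+CLP, with 42427093, 87031721 and 95178381 UMIs. Cells with at least 500 UMIs, 200 genes and at most 10% mitochondrial UMIs were kept. Doublets were scored against 2 simulated doublets per cell (2000 variable genes, 30 principal components, 30 neighbours), and the top 0.8% per 1000 barcodes of each library were removed, 395, 987 and 1174 cells. This left 6496, 9853 and 10849 cells. No cell annotation was used, and names of lineages rest on the gates.

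UMIs were summed per lineage and library. Ratios of CPM carry exact conditional binomial 95% intervals. A level of 0 was replaced by 3 counts for a bound. With 1 library per group no test was made, and no p-value is given. Named members are, in each lineage and comparison, the 3 furthest in each direction by the interval bound nearest to 0, the 3 with the highest CLP level, and paralogues; the other members named were chosen after their values were seen. Genes of other lists are among the 3 furthest of each list. Alternatives covered doublets, gates, the mitochondrial limit, scaling, the UMI minimum, means over cells, cycling cells and free RNA. Shared 3′ words are 90-base words of the last 600 transcript bases. Scripts were tested on simulated data and ran in Python 3.11.15 with NumPy 2.4.6, SciPy 1.17.1, pandas 2.3.3, scikit-learn 1.9.0 and matplotlib 3.10.9.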

Additional observations from a re-analysis of the deposited data

Results flagged for a closer look

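For 4 members the CLP over Sham log2 ratios of 2 lineages lay on opposite sides of 0 with intervals that exclude 0, and at least 1 ratio was past 2-fold. Oasl2 was at 3.02 in T cells and -0.35 in neutrophils. Samhd1 was at 1.15 in T cells and -0.18 in monocytes. Trim30a was at 1.01 in T cells and -1.09 in neutrophils. Epsti1 was at 0.18 in T cells and -1.21 in monocytes. In HDCA+CLP over CLP the same held for Isg15, at 0.70 in neutrophils and -1.67 in B cells, and for Ifi204, at 0.68 in neutrophils and -2.52 in B cells, where 93 of the 101 CLP UMIs lay in 9 cells that held over 2 Lyz2 UMIs. Without a ratio past 2-fold, intervals on opposite sides of 0 were also seen for Ddx58 and Irf9 in CLP over Sham, and for 15 members in HDCA+CLP over CLP, Isg20, Slfn5 and Parp9 among them. The same counts were not made over all genes. In HDCA+CLP over CLP neutrophils the intervals of 18.9% of all measured genes lay above 0 and those of 23.6% below. With 1 library per group none of these differences between lineages was tested. Oasl2 in neutrophils was at 0.04 under the scaling on the median of gene ratios.

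The cells that met no gate, in the order Sham, CLP, HDCA+CLP 77, 311 and 173, were in no comparison of the lineages. Their summed member level was 1631, 2766 and 3594 CPM in that order. Isg15 was at 37.2, 164 and 187 CPM in them. Platelet markers were at 3461, 551 and 797 CPM in the same cells, and their part in the member levels was not tested.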

How the results depend on the processing

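No paired analysis was possible because each group held 1 library. No single-gene ratio past 2-fold changed sign. Of 634 recomputed single-gene ratios, 16 changed sign, among them Samhd1 in neutrophils (0.32) and NK cells (0.29) and Oasl2 in neutrophils (0.04) under the median scaling. With under 3 Ly6c2 UMIs, monocyte Trim30a went to 0.19 in CLP over Sham. In CLP against Sham, members higher numbered 29 to 31 in T cells, 19 to 25 in neutrophils, 9 to 16 in monocytes, 15 to 26 in B cells and 6 to 20 in NK cells under the other settings. The ends of 15 of 26 in B cells and 6 of 20 in NK cells came with a minimum of 100 UMIs, which tests fewer genes. Members lower in neutrophils were 0 without doublet removal, 0 under the median scaling and 0 with abundant genes left out of the total. Monocytes had 0 lower under the median scaling. Those with under 3 Ly6c2 UMIs, chosen after seeing the data, had 19 of 35 higher and 0 lower. With neutrophil free RNA subtracted, NK cells had 1 of 33 lower, against 13.1% of all genes.

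In HDCA+CLP against CLP, 1 of 37 neutrophil members was higher without doublet removal and 2 with cells meeting 2 or more gates left out. Doubled gates, the mean over cells and leaving out cycling cells gave 1 each. The shares of all genes higher were 1.44% to 2.49% under these settings. By the mean over cells 1 was lower, against 2.94% of all genes. In monocytes 0 of 37 were lower with doubled gates, 0 of 35 at 100 UMIs and 0 of 37 with at least 3 Ly6c2 UMIs. The shares of all genes lower there were 2.36%, 0.665% and 2.13%. With under 3 Ly6c2 UMIs 3 of 32 were lower, near the 8.92% of all genes. Without cycling cells 1 of 37 was higher, against 1.6% of all genes. In B cells 1 of 31 was lower with cells meeting 2 or more gates left out, against 2.16% of all genes. At a mitochondrial limit of 5%, 4 of 31 were lower, near the 11.2% of all genes. By the mean over cells 1 of 33 was lower and with at most 2 Lyz2 UMIs 1 of 31, against 4.6% and 2.46%. At 100 UMIs 0 of 17 were higher, against 1.33% of all genes. T cells had 1 of 37 lower without doublet removal, against 3.68% of all genes. In NK cells 6 of 36 were higher with cells meeting 2 or more gates left out and 4 of 36 by the mean over cells. The shares of all genes higher were 1.72% and 1.77%. At 100 UMIs 0 of 26 were higher and with free RNA subtracted 0 of 35, against 0.266% and 1.37%. The causes were not tested. The other 198 recomputed counts stayed within 1.5 times. Of the single-gene ratios, 595 stayed within their counting interval and 39 did not, and 4 of 114 medians of the members moved by 0.3 or more. Depth limits the B, NK and Sham neutrophil gates most, where several members rest on under 30 UMIs.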
